A study of Mus musculus with 30 samples.

Results

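The cytosolic ribosomal protein genes were examined in 30 single mouse primordial germ cells (PGCs), the embryonic precursors of eggs and sperm. Genes were taken by symbol: Rpl or Rps followed by a number and an optional suffix, together with the stalk proteins Rplp0 to Rplp2 and with Rpsa. The S6 kinases, the mitochondrial ribosomal proteins and pseudogenes were left out. The array annotation gave 49 such genes among 18194 genes with a probe set of their own, 23 of the small and 26 of the large ribosomal subunit. Where a gene had several of the 105 probe sets, the one with the highest mean was used. A further 110 probe sets joined such a symbol to another symbol, and 29 ribosomal protein symbols appeared only in those. They are not named here, and of these 110 probe sets 82 lay at a mean of 12 or more on the log2 scale and were detected in every cell.

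The cells came from C57BL/6 embryos of intercrosses of Prdm14 (+/-) mice, recovered at E7.25 to E7.5, when PGCs gather at the base of the allantois bud. PRDM14 is a PR domain protein needed for PGC development. Single cells were drawn at random into a glass capillary, their cDNA was amplified, cDNAs with Prdm1 transcript were kept as PGC cDNAs, and each was hybridised to an Affymetrix whole-genome mouse array. The genotype labels, set by PCR, gave 13 WT cells, 13 Prdm14+/- cells and 4 Prdm14 KO cells. No label says which embryo or litter a cell came from, so cells of a genotype may be littermates or may share an embryo. Each genotype was therefore treated as 1 sample, no test was run, and an SD is the spread between cells.

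The ribosome translates every mRNA of the cell, and each of its subunits combines ribosomal RNA with a set of small, mostly basic proteins that are made in matched amounts. Their mRNAs are among the most abundant of any growing cell. Most begin at a cytosine inside a stretch of pyrimidines, the 5′ terminal oligopyrimidine (TOP) tract, through which mTOR signalling and the RNA-binding protein LARP1 adjust their translation. Growing early embryonic cells, PGCs among them, depend on a steady supply of new ribosomes.

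RefSeq windows of 250 bases before to 50 after the annotated start (build GRCm38.p6) were matched for 43 of the 49 genes. The lines below run 5′ to 3′ on the gene's strand, from 40 bases before the start to 20 after it. Capitals mark the longest run of at least 6 pyrimidines with a base within 5 of the start. Rps27l and Rpl3l had 2 windows each, and where windows differed the one with the longest such run is shown. Rps18 and Rplp2 are shown as members with very little spread between cells, Rpl38 and Rps9 as ordinary subunit genes, Rpl22l1, Rps27l and Rpl39l as paralogs of other members, and Rpl3l as a member never detected in these cells. They lie at chr17:33955646-33955705 on the minus strand and, on the plus strand, at chr7:141447611-141447670, chr11:114668540-114668599, chr7:3704001-3704060, chr3:28805468-28805527, chr9:66946046-66946105, chr16:10170188-10170247 and chr17:24727786-24727845.
Rps18: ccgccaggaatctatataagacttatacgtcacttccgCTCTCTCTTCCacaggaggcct
Rplp2: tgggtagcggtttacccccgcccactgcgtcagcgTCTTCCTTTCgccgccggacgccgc
Rpl38: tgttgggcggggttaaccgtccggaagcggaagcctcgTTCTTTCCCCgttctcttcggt
Rps9: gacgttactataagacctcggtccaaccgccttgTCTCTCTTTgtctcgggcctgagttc
Rpl22l1: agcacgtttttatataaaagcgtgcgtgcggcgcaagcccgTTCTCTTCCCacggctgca
Rps27l: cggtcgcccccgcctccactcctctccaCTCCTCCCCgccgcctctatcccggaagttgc
Rpl39l: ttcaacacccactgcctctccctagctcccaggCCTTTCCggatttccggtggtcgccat
Rpl3l: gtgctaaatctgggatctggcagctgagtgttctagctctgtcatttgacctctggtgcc

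Rps18 had a run of 11 pyrimidines and Rplp2 one of 10, whereas Rpl3l, the paralog of Rpl3 known from skeletal muscle and heart, had none of 6 or more near its annotated start. Such a run was found in 53.5% of the matched ribosomal protein genes and in 23.0% of all 27025 genes with a window. On either strand of the whole window, CCGGAAG, a core read by the ETS factor GABP, was held by 48.8% of the members and by 9.93% of all genes. AAGATGG, a YY1-type core, was held by 18.6% and 7.28%. The TATAAA box was held by 6 of 43 members and by 15.7% of all genes. Rpl38 and Rps27l hold CCGGAAG within the printed bases and Rpl22l1 holds TATAAA there. The motifs were searched as exact letters, and the windows follow annotated and not measured starts.

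A few facts of the whole series bear on these values. Array values were log2 model-based expression indices, and in each cell 58.9% to 69.6% of all probe sets were listed at exactly 0. Values under 6 were set to a floor of 6 before means were taken. The Prdm14 transcript ran against the labels: it was above the floor in 6 of 13 WT cells, 12 of 13 Prdm14+/- cells and 4 of 4 cells labelled Prdm14 KO, with means of 7.40, 9.70 and 11.40. Dppa3, an early PGC gene, ran in the same order, above the floor in 10, 10 and 4 cells with means of 9.05, 10.23 and 12.55. Where the Prdm14 probe set sits relative to the deletion is not known here, and whether labels were exchanged was not tested. The labels are kept as group names throughout, and the sign of every difference between labels given here holds only as far as the labels do. Of 9 PGC markers, 3 were above the floor in all 30 cells. Prdm1 was among them at 10.39 ± 1.31, but the cDNAs had been kept for their Prdm1 transcript. In cells labelled Prdm14 KO, 7 of the 9 were higher by 1 or more than in WT, against 8.14% of all genes. Of 10 endoderm, 7 extraembryonic ectoderm and 8 blood and endothelial markers, none was above the floor in all cells. The mean over each list in a cell spanned 6 to 6.90, 6 to 8.81 and 6 to 7.04. Sox17 was nonetheless above the floor in 21 of the 30 cells, Krt8 in 25, Krt18 in 26 and Lmo2 in 18. The rest of these lists were so in 11 cells or fewer. For 14 somatic mesoderm markers the list mean spanned 7.55 to 10.01, and 3 of them were above the floor in all cells. The array runs named in the titles were confounded with the labels: run 1 held 10 WT cells, run 2 held 3 WT and 7 Prdm14+/- cells, and run 3 held 6 Prdm14+/- and 4 labelled Prdm14 KO cells. WT cells and cells labelled Prdm14 KO shared no run, so run and label cannot be told apart between them.

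Most ribosomal protein transcripts were detected in every cell, and most of those lay at the top of the measured scale. Of the 49 genes, 39 were above the floor in all 30 cells, beside 1696 of 18194 genes in all. For 34 of them the value stood at or above the 99th percentile of its own array in every cell. A single cell had 44 to 47 members above the floor, and 36 to 40 of them fell in the top 1% of its array. Per cell, the 49 probe sets carried 4.08% to 5.08% of the linear expression index summed over the best probe sets of the 18194 genes. Probe sets that join several symbols are outside that sum, so this is not the ribosomal share of the whole array.

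**Figure D1:**
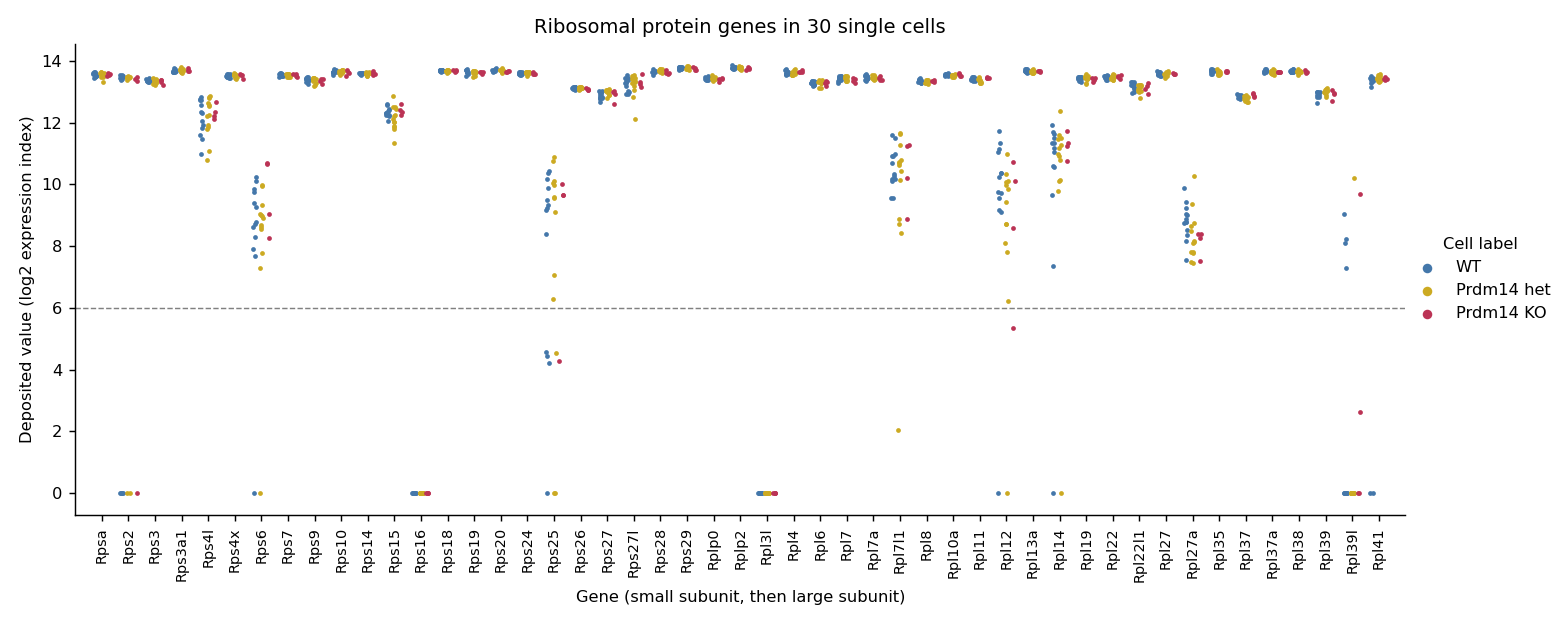
Deposited log2 expression index (y axis) of each of the 49 ribosomal protein genes (x axis, small then large subunit) in every cell, coloured by label, with the floor of 6 dashed. Most genes form a tight band near the top of the scale in all 30 cells, while 11 genes lie lower, scatter widely or are listed at 0.

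A group of 38 genes, set apart after their values were seen, had means of at least 12 and was above the floor in every cell; 19 encode small and 19 large subunit proteins. Their means ran from 12.19 to 13.77 and their SDs over the 30 cells from 0.028 to 0.58, with a median SD of 0.053 and 32 SDs under 0.1. The narrowest were Rps18, Rps26, Rpl13a, Rpl10a and Rplp2.

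Rps18, a protein of the head of the small subunit, ran from 13.64 through a median of 13.69 to 13.72 in WT. It ran from 13.60 through 13.68 to 13.71 in Prdm14+/- cells, and its 4 values in cells labelled Prdm14 KO were 13.71, 13.65, 13.68 and 13.71. The labels overlapped over nearly the whole range, and the SD over all cells was 0.028. Rps26, which lines the mRNA exit channel, had an SD of 0.033, and its KO minus WT difference was -0.043.

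The stalk of the large subunit, which recruits elongation factors, was represented by Rplp0 and Rplp2. Rplp0 had a median of 13.44 (range 13.38 to 13.50) in WT and 13.43 (13.34 to 13.54) in Prdm14+/- cells, and lay between 13.33 and 13.43 in cells labelled Prdm14 KO. Rplp2 had medians of 13.77 in WT and in Prdm14+/- cells, with 13.81, 13.71, 13.75 and 13.75 in cells labelled Prdm14 KO. The ranges of all labels overlapped for both genes. Rpsa, the laminin receptor precursor and a small subunit protein, had a mean of 13.55 ± 0.068 (SD, n = 30 cells) and a KO minus WT difference of 0.0065.

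Further members are known for roles in disease or patterning. Rpl11, which binds MDM2 when ribosome assembly is disturbed, had means of 13.42 ± 0.046 in 13 WT, 13.36 ± 0.060 in 13 Prdm14+/- and 13.45 ± 0.019 in 4 cells labelled Prdm14 KO. All 4 of the latter lay between 13.43 and 13.47, inside the WT range of 13.35 to 13.49. Rpl38, needed for axial patterning in the mouse, was at 13.65 ± 0.043 over all cells. Rps19, mutated in Diamond-Blackfan anaemia, was at 13.63 ± 0.059. Neither of these differed by as much as its SD between any pair of labels.

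Both members on the X chromosome were detected throughout. Rps4x had a mean of 13.52 ± 0.049 with label means of 13.51 in WT, 13.52 in Prdm14+/- cells and 13.51 in cells labelled Prdm14 KO. Rpl39, which lines the peptide exit tunnel, had a lowest value of 12.65 and a median of 12.90 in WT and ran from 12.84 through 13.03 to 13.11 in Prdm14+/- cells. Its values in cells labelled Prdm14 KO were 12.97, 12.94, 12.70 and 13.06. Its Prdm14+/- mean was higher by 0.10, with a pooled SD of 0.087, and the ranges overlapped. Rps27 moved in the same way, higher by 0.11 (pooled SD 0.097). WT cells 25 and 65 and the cell labelled Prdm14 KO number 21 were among the 4 lowest cells for both genes. In the same comparison Rpl10a at -0.039 (pooled SD 0.027) and Rpl11 at -0.065 (0.053) passed their pooled SD downward.

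The remaining members of the group, whose SDs were at most 0.077, were Rps3, Rps3a1, Rps7, Rps9, Rps10, Rps14, Rps20, Rps24, Rps28 and Rps29 of the small subunit and Rpl4, Rpl6, Rpl7, Rpl7a, Rpl8, Rpl10a, Rpl13a, Rpl19, Rpl22, Rpl27, Rpl35, Rpl37 and Rpl37a of the large one.

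The small spread was set beside that of other genes in the same range of means, with no test. Among genes with a mean of 13 or more that were always above the floor, 33 were members, with a median SD of 0.049, and 41 were other genes, with a median SD of 0.124. Levels were not matched within that range. Of the 41 other genes, only Eef1a1 (mean 13.59, SD 0.039) and Tpt1 (13.67, SD 0.044) lay above the 13.45 of Uqcrb, whereas most of the 33 members did. Between 12 and 13, the 5 members had a median SD of 0.123 and the others one of 0.289. Over all 1696 always detected genes the median SD was 0.64. Of the 50 genes of least SD, 33 were members, and the others included Eef1a1, Eef1b2 and Tpt1, whose mRNAs also carry TOP tracts.

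**Figure D2:**
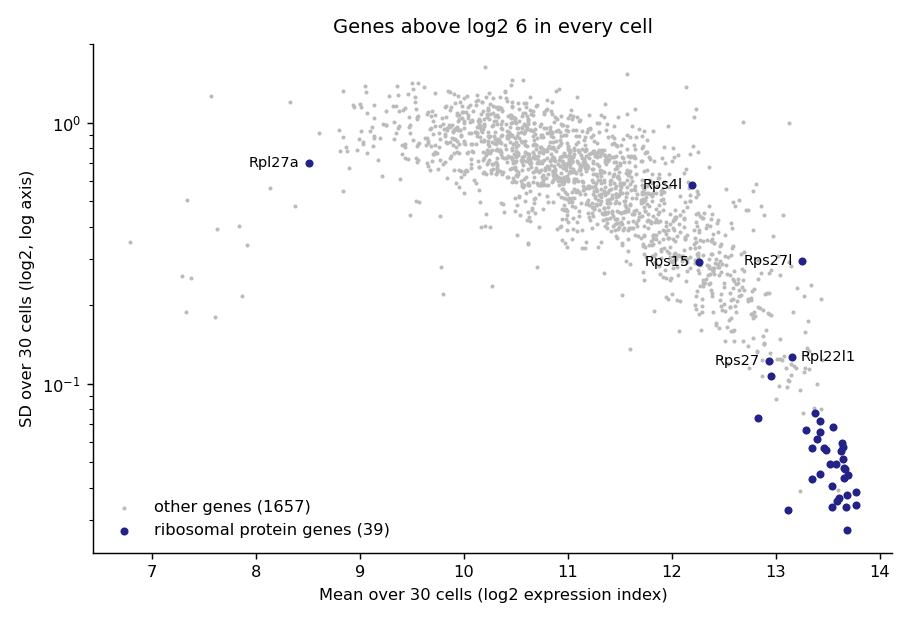
SD over 30 cells (y axis, log scale) against the mean log2 expression index (x axis) for the 1696 genes above the floor in all cells. The 39 ribosomal protein genes (dark) gather at the high end, most with SDs below 0.1, and the named ones have SDs above 0.11.

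This closeness was measured where values crowd near the top of the scale. The SD of the other genes also fell with level. The highest value of an array ran from 13.72 to 16.05, with a median of 13.80. The 99.9th percentile of the arrays spanned only 13.52 to 13.64. The mean of the 38 genes followed that percentile over the 30 cells (Pearson r = 0.87, Spearman rho = 0.80), and both quantities come from the same array. Members themselves stand above it, such as Rplp2 and Rps29 with median percentiles of 99.998 and 99.996. The correlation is therefore partly built in and decides nothing. Little variation in mRNA and a saturating top of the scale cannot be told apart. Within the 38 genes, 703 pairs had a median r of 0.27 over cells, or 0.30 with label means removed, against 0.17 for the 41 other genes of like level and 0.010 for all always detected genes. For 17 members with 2 or more such probe sets, the best and the next correlated with a median r of 0.64.

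Spread above 0.11 in the group was seen in 5 genes. Rps15, near the decoding site of the small subunit, was at 12.33 ± 0.15 in WT, 12.14 ± 0.39 in Prdm14+/- cells and 12.40 ± 0.14 in cells labelled Prdm14 KO. The lowest value, 11.33, and the highest, 12.86, were both in Prdm14+/- cells, numbers 78 and 66. The other probe set of Rps15 followed it over cells with r = 0.87. The other genes were Rps27, described above, and 3 paralogs.

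In all, 6 members carry an l or l1 suffix and encode paralogs of another ribosomal protein. Rps27l, a paralog of Rps27 and a target of p53, ran from 12.92 through 13.28 to 13.55 in WT and from 12.11 through 13.35 to 13.55 in Prdm14+/- cells. Its values in cells labelled Prdm14 KO were 13.32, 13.26, 13.16 and 13.58. One Prdm14+/- cell, number 66, stood apart at 12.11, and the next probe set followed it over cells with r = 0.997. The labels otherwise overlapped, and the SD of 0.29 was above that of Rps27 (0.12).

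Rps4l, the widest of the 38 genes with an SD of 0.58, ran from 10.98 through 12.31 to 12.85 in WT and from 10.79 through 12.23 to 12.86 in Prdm14+/- cells. Cells labelled Prdm14 KO had 12.21, 12.68, 12.35 and 12.13, within both other ranges. Its X-linked partner Rps4x had an SD of 0.049. Rpl22l1, whose partner Rpl22 binds RNA outside the ribosome as well, ran from 12.97 through 13.22 to 13.33 in WT and from 12.79 through 13.19 to 13.23 in Prdm14+/- cells. It stood at 13.09, 13.27, 13.19 and 12.92 in cells labelled Prdm14 KO. Rpl22 had label means of 13.48, 13.49 and 13.48.

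The other paralogs were lower or not detected. Rpl7l1 was above the floor in 29 cells, from 9.55 through 10.34 to 11.59 in WT, and at 10.20, 11.27, 11.23 and 8.87 in cells labelled Prdm14 KO. Prdm14+/- cell 91 had 2.05. Rpl39l, a paralog of Rpl39 known from male germ cells, was above the floor in 6 cells. These were 4 WT cells (7.29 to 9.03), 1 Prdm14+/- cell (10.19) and 1 cell labelled Prdm14 KO (9.69), and 23 cells were listed at 0. Rpl3l was listed at 0 in all 30 cells.

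**Figure D3:**
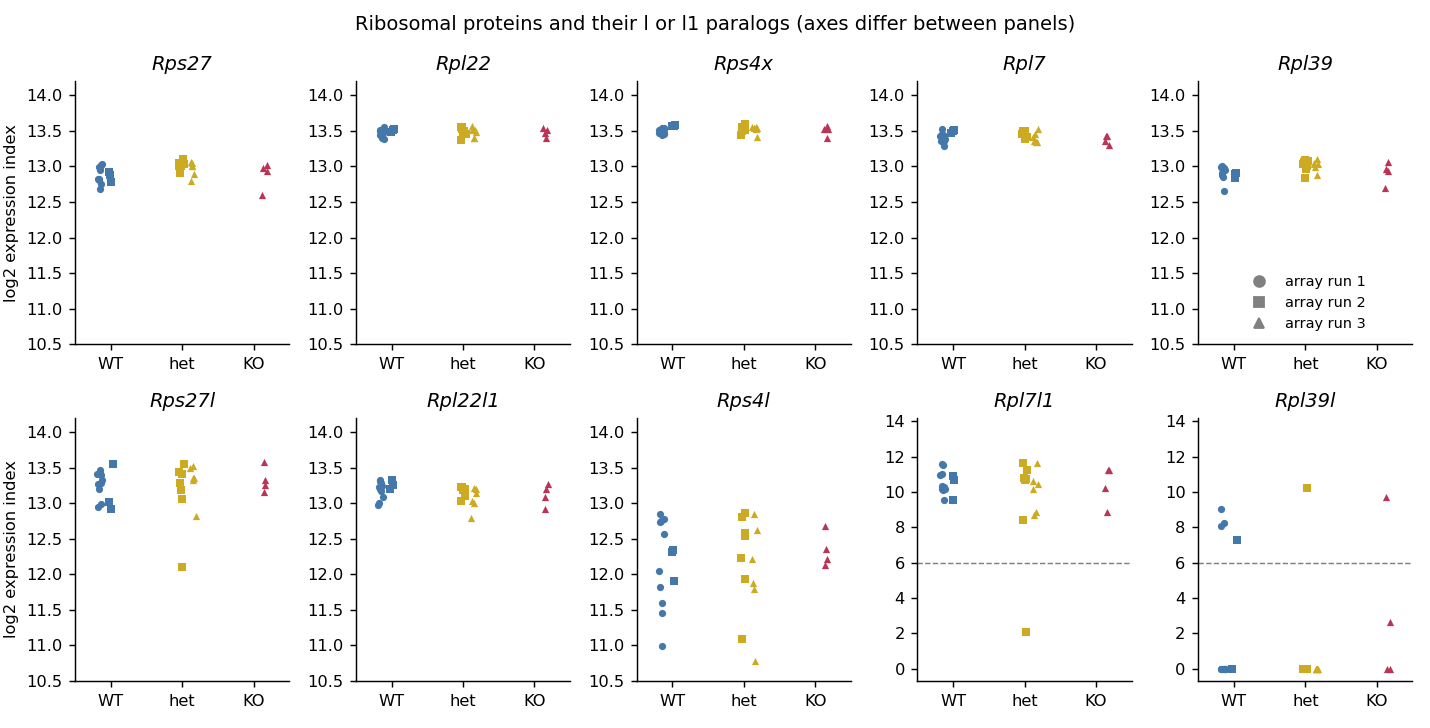
Log2 expression index per cell of 5 ribosomal proteins (upper row) and their l or l1 paralogs (lower row) by label, with marker shape giving the array run. The upper genes stay in narrow bands in every label, while Rps4l and Rps27l scatter more and Rpl39l is above the dashed floor of 6 in 6 cells.

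Besides Rpl3l, Rpl7l1 and Rpl39l, 8 members lay outside the group of 38. Rps16 was listed at 0 in all 30 cells by its only probe set of its own. A 0 for a protein of every ribosome can be a failed estimate, and such zeros are given as listed.

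Rps2 and Rpl41 were either at the top of the scale or listed at 0. Rps2, at the mRNA entry channel, was listed at 0 in 4 WT cells, 2 Prdm14+/- cells and 1 cell labelled Prdm14 KO, and lay between 13.35 and 13.54 in the other 23. Rpl41, the smallest ribosomal protein, was at 0 in WT cells 61 and 65 and between 13.15 and 13.57 in the rest. Another Rpl41 probe set was above the floor in all 30 cells, with an SD of 0.082 and a KO minus WT difference of -0.068.

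Intermediate and scattered levels were read for 5 genes from probe sets of their own. Whether a joined probe set gives another level for any of them was not examined. Rps6, the protein that S6 kinase phosphorylates, was at 0 in WT cell 49 and Prdm14+/- cell 89, had medians of 8.78 in WT and 8.91 in Prdm14+/- cells, and reached 10.23 and 9.98. Cells labelled Prdm14 KO had 8.27, 10.66, 9.04 and 10.69, of which 2 lay above every other cell. Rpl12, of the stalk base, had medians of 10.23 in WT and 9.44 in Prdm14+/- cells, each with 1 cell at 0. In cells labelled Prdm14 KO it was at 10.10, 8.59, 5.36 and 10.72, inside the range of the other labels.

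Rpl14 had medians of 11.18 in WT and 10.99 in Prdm14+/- cells, each with 1 cell at 0, and 11.26, 11.33, 11.72 and 10.77 in cells labelled Prdm14 KO. Rps25, which is used by viral internal ribosome entry sites, was above the floor in 22 cells, with 9.65, 9.67 and 4.28 in cells 8, 18 and 21 labelled Prdm14 KO and a higher value in cell 81. Rpl27a was above the floor in every cell, from 7.54 through 8.78 to 9.87 in WT and from 7.45 through 8.13 to 10.26 in Prdm14+/- cells. It was at 8.28, 7.53, 8.38 and 8.40 in cells labelled Prdm14 KO. All labels overlapped for these 3 genes.

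The design sets cells labelled Prdm14 KO and Prdm14+/- against WT, and the ribosomal protein genes as a whole differed by less than the spread between cells. A ribosomal protein score, the mean of the 49 genes in a cell, was 12.42 ± 0.092 in WT, 12.41 ± 0.095 in Prdm14+/- cells and 12.46 ± 0.12 in cells labelled Prdm14 KO. KO minus WT was 0.037 (pooled SD between cells 0.098), Prdm14+/- minus WT was -0.0068 (0.093) and KO minus Prdm14+/- was 0.044 (0.10). Over the 38 genes alone the differences were -0.0035 (0.036), -0.0100 (0.039) and 0.0064 (0.038). Both subunits gave like scores, 13.37, 13.37 and 13.38 for the small and 13.45, 13.43 and 13.43 for the large in WT, Prdm14+/- and labelled KO cells. These comparisons share samples and are not independent of each other.

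**Figure D4:**
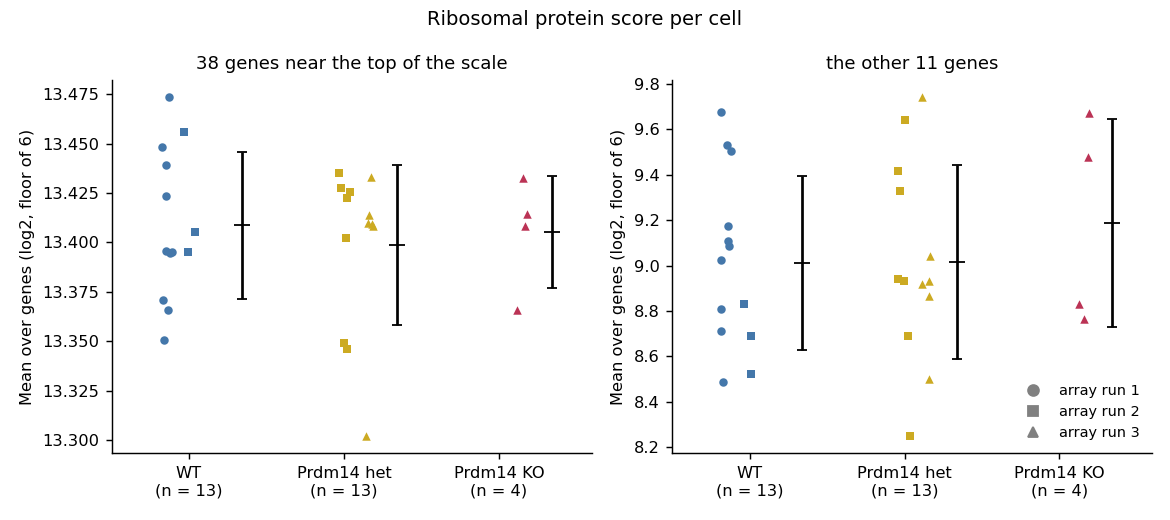
Mean log2 expression index per cell of the 38 genes near the top of the scale (left) and of the other 11 (right, floor of 6) by label, with marker shape for the array run and black bars for mean and SD over cells. The y axes do not start at 0, the labels overlap in both panels, and the left axis spans under 0.2 in all.

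Within run 2, Prdm14+/- minus WT was 0.064 over 7 and 3 cells, larger than over all runs and of the other sign. Within run 3, KO minus Prdm14+/- was 0.049 over 4 and 6 cells. Both were smaller than the pooled SDs given above. The share of the 49 genes in the index summed over the 18194 genes was 4.57% ± 0.23 in WT, 4.56% ± 0.16 in Prdm14+/- cells and 4.40% ± 0.19 in cells labelled Prdm14 KO. This share went with the share of probe sets at 0 (r = 0.58, rho = 0.61, 30 cells). It went against the median of always detected probe sets (r = -0.72, rho = -0.77). All of these come from the same arrays, and what links them was not tested. The 5′ control probe set of Gapdh moved with the labels, at 13.10 ± 0.23, 12.77 ± 0.32 and 12.54 ± 0.31, and its 3′ one at 13.36, 13.25 and 13.20. Its part in the member values was not tested.

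Few members passed a difference of 1, that is 2-fold, between label means. In KO minus WT, 1 of 49 was higher by 1 or more, Rpl41 at 1.18, against 8.14% of all genes, and 1 was lower, Rpl12 at -1.12, against 4.41%. Rpl41 was 0.045 with the values listed at 0 left out, and without the labelled KO cell 21 Rpl12 was -0.17. In Prdm14+/- minus WT, Rpl41 at 1.20 and Rps2 at 1.14 were higher (2.46% of all genes) and Rpl12 at -1.02 was lower (2% of all genes). Rps2 and Rpl41 differ there in the number of cells listed at 0. Within run 2, the only run with both labels, Rps2 turned to -1.11 and Rpl12 to 0.68, and Rpl41 was 4.94, with 2 of the 3 WT cells listed at 0. In KO minus Prdm14+/-, Rps6 was higher by 1.04 (7.02% of all genes) and no member was lower by 1 (3.84%). Rps6 was 0.38 within run 3, and over all runs Prdm14+/- cell 89 was listed at 0 for it.

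Within run 2, 4 members passed 1 in either direction (14.7% of all genes), and within run 3, 1 did (14.6%). Of the 39 always detected members none passed 1 in any of these comparisons, where 4.78%, 0.531% and 3.12% of all always detected genes did so in KO minus WT, Prdm14+/- minus WT and KO minus Prdm14+/-. A difference smaller than 0.1 was found in KO minus WT for 39 of the 49 members, beside 7736 of all 18194 genes. Rpl3l and Rps16, at 0 in every cell, are among the 39 and could not differ, as holds for any gene never above the floor. Among always detected genes it was found for 37 of the 39 always detected members and for 406 of all 1696. The largest differences in KO minus WT outside those named were 0.86 in Rps6, 0.82 in Rpl14, 0.39 in Rps2 and 0.33 in Rps25 upward and -0.65 in Rpl27a, -0.13 in Rpl7l1, -0.083 in Rpl22l1 and -0.052 in Rpl7 downward. With array run as a block, Rps6, Rps2 and Rps25 turned to -0.47, -1.77 and -0.89. Rpl12 turned to 0.85, and Rpl14 and Rpl41 were 2.86 and 4.92. As WT cells and cells labelled Prdm14 KO shared no run, such a value adds the differences within run 2 and within run 3. Its only WT cells are thus the 3 of run 2. Among these, Rpl41 was listed at 0 in cells 61 and 65 and Rpl12 in cell 64, where Rpl14 was 7.37. With 1 labelled KO cell left out at a time, Rps2 ran from -0.25 to 2.24 and Rps25 from -0.059 to 1.28, the highest values without cells 18 and 21. Rps6 ran from 0.52 to 1.32 and passed 1 without cell 8 or without cell 21. Rpl14 was 1.38 in KO minus Prdm14+/- within run 3, where 1 of the 6 Prdm14+/- cells was listed at 0. In Prdm14+/- minus WT, Rpl14 followed upward at 0.18, and Rpl7l1 at -0.52 and Rpl27a at -0.47 downward.

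**Figure D5:**
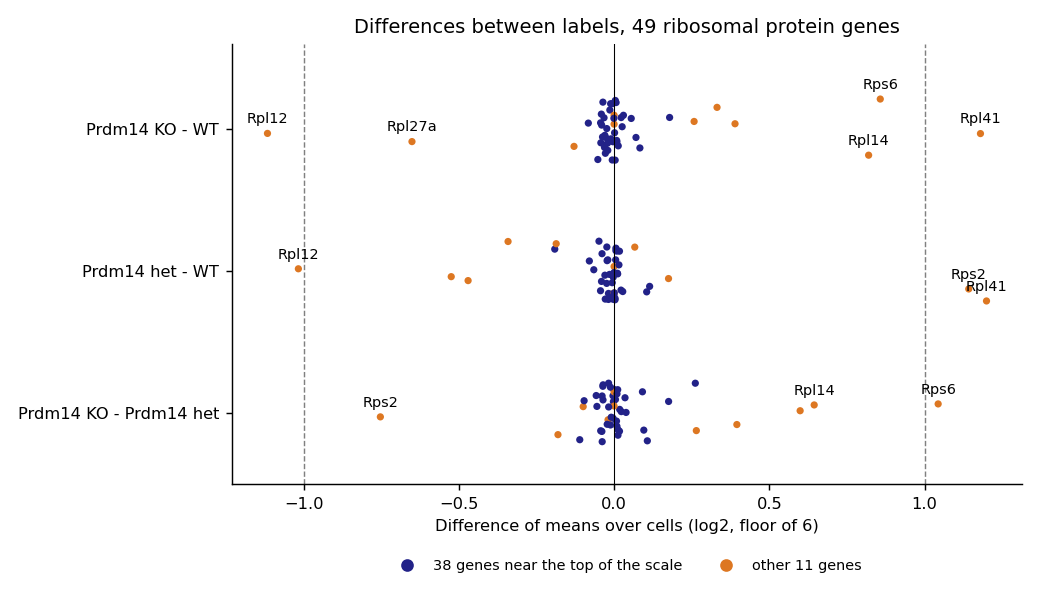
Difference of label means (x axis, log2, floor of 6) of each of the 49 genes in the 3 comparisons, with dashed lines at -1 and 1. The 38 genes near the top of the scale (dark) lie within 0.3 of 0 in each comparison, and the genes past 1 all belong to the other 11.

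Probe sets of the same gene did not always give the same difference. For 4 of 24 genes with several, KO minus WT differed by 1 or more between them. Rpl37a spanned -2.88 to -0.031, Rpl41 -0.068 to 2.19 and Rps24 -1.70 to 0.036. For these 3 genes the extreme value came from a probe set with 7 to 11 cells listed at 0, whereas the used sets of Rpl37a and Rps24 lay between 13.52 and 13.74 in every cell. The fourth was Rps9, a protein of the small subunit, which spanned -0.83 to 0.63. Its value of 0.63 came from a probe set above the floor in all 30 cells, whose r with the used set (-0.041) was -0.085 over cells. Of the 49 used probe sets, 16 were of the s_at or x_at types that can cross-hybridise with related transcripts, and ribosomal protein genes have many near-identical processed pseudogenes. Signal from those could not be separated.

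Other parts of the translation machinery were compared with a list for each. The 12 measured translation factors with TOP mRNAs were all above the floor in all cells, with a median SD of 0.22, and none differed by 1 in any comparison. Naca, of the nascent chain complex, was at 13.44 ± 0.080 and Pabpc1, the poly(A) binding protein, at 13.20 ± 0.23. Fau, whose product includes a small subunit protein under another name, was at 13.20 ± 0.11.

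Ribosome biogenesis factors varied more. Of 22 measured, 12 were always detected, the median SD of the 22 was 0.79, and in KO minus WT 1 was higher and 1 lower by 1 or more (8.14% and 4.41% of all genes). Rrn3, which recruits RNA polymerase I, had means of 8.49 in WT, 9.97 in Prdm14+/- cells and 10.97 in cells labelled Prdm14 KO. Prdm14+/- minus WT was 1.48 over all cells but -0.14 within run 2, and KO minus Prdm14+/- was 0.69 within run 3. Nop58, of the box C/D particles, was above the floor in 12 of 13, 10 of 13 and 2 of 4 cells and differed by -1.33. The nucleolar proteins Npm1 (13.32 ± 0.13) and Fbl (12.59 ± 0.23) differed by less than their spread.

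Of 14 regulators of ribosome production, 5 were higher and 1 lower by 1 or more in KO minus WT (8.14% and 4.41% of all genes). Mycn had mean levels of 11.23 in WT and 12.32 in cells labelled Prdm14 KO, and Myc was not above the floor in any of the latter, against 6 of 13 WT cells. The differences of Mtor, Tsc1, Mdm2 and Cdkn1a were 1.01, 1.13, 1.33 and 2.25. These genes were above the floor in 12, 4, 11 and 5 of 13 WT cells and in 4, 3, 4 and 4 of 4 cells labelled Prdm14 KO. Rps27l and Cdkn1a are both known p53 targets, and Rps27l differed by 0.083. Larp1 was always detected and differed by 0.28.

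The mitochondrial ribosomal proteins make up the separate ribosome of that organelle. Of 76 measured, 38 were always detected, the median SD of the 76 was 1.02, and 7 were higher and 5 lower by 1 or more in KO minus WT, where 8.14% and 4.41% of all genes were. The corresponding counts were 4 and 2 in Prdm14+/- minus WT (2.46% and 2% of all genes) and 3 and 6 in KO minus Prdm14+/- (7.02% and 3.84%).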

How the data were processed

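The authors deposited 1 table of log2 model-based expression indices (MBEI) for 45101 probe sets in 30 single cells, made with dChip 1.3 from the perfect match and mismatch probes of Affymetrix whole-genome mouse arrays. How arrays were scaled to each other: not given in the sources used here. cDNA of 1 cell was amplified before hybridisation, so values carry amplification noise. The number of arrays limits the precision, and no 2 arrays held identical values.

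Probe sets were named from the platform annotation: 34958 had 1 symbol, 932 several and 9211 none listed, and 18194 genes remained. A gene was read from its probe set of highest mean. Values under 6 were set to 6. Cells were grouped by the genotype in the labels, and array runs by the titles. Because each genotype counts as 1 sample, differences of means with SDs between cells are given and no p-values, and a call is a difference of 1. The scripts were tested on simulated data. Members and lists were chosen with earlier results of these data known. Members named were those of known role, the X-linked ones, paralogs with their partners, members not detected in every cell, and those with extreme SDs, differences or probe set disagreement. Alternatives were floors of 4 and 8, 3 other scalings, other probe set choices, medians, array run as a block and leaving out each labelled KO cell. Promoter windows and coordinates come from RefSeq on GRCm38.p6. Python 3.11.15, NumPy 2.4.6, pandas 2.3.3, SciPy 1.17.1 and matplotlib 3.10.9 were used.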

Additional observations from a re-analysis of the deposited data

Results flagged for a closer look

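Among the 4 cells labelled Prdm14 KO, 6 of 49 members had 1 cell far from the other 3, with a gap to the nearest cell, divided by the range of the 4, above Dixon's 95% critical value. Chance flags about 1 in 20 such groups, and members share cells. Rps2 was listed at 0 in cell 18 and at 13.48, 13.35 and 13.42 in cells 8, 21 and 81 (0.983 of the range). Rpl27a was lowest in the same cell 18, at 7.53 against 8.28 to 8.40 (0.862). Rps25 was lowest in cell 21, at 4.28 against 9.65 or more (0.913), and Rps19 was lowest there too, at 13.57 against 13.64 to 13.65 (0.937). Rpl39l was above the floor in cell 8 only, at 9.69 (gap over range 1 after the floor). Rps28 was highest in cell 81, at 13.72 against 13.59 to 13.60 (0.863).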

How the results depend on the processing

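Under most alternatives the score differences stayed within the spread between cells of the value reported. Scaling all arrays to the same 75th percentile, which lay between 4.92 and 7.53 and moves with the share of probe sets at 0, gave -0.64 for KO minus WT, -0.22 for Prdm14+/- minus WT and -0.42 for KO minus Prdm14+/-, and a median SD of members of 0.81. That scaling moved the median of all always detected genes by as much (-0.72, -0.26 and -0.46), and relative to it the always detected members differed by -0.024, 0.028 and -0.046. Without s_at and x_at probe sets, 44 genes remained, and Prdm14+/- minus WT was -0.11. Averaging all probe sets of a gene gave a median SD of 0.092. The members higher by 1 in KO minus WT, 1 as reported, numbered 2 with a floor of 4, 0 with a floor of 8, with the 75th percentile scaling or without s_at and x_at sets, and 3 with array run as a block or a threshold of 0.5. The members lower by 1, 1 as reported, numbered 0 with a floor of 8 or with medians over cells, and 2 with the 75th percentile scaling, without s_at and x_at sets, or with a threshold of 0.5. Leaving out each labelled KO cell in turn gave 1 to 3 higher, with 3 without cell 21, 0 to 1 lower, with 0 without cell 21, scores of KO minus WT from -0.0019 to 0.074, and of KO minus Prdm14+/- from 0.0050 to 0.081. Chosen after seeing the data, leaving out members ever listed at 0 gave 0 higher and 0 lower, and leaving out the values at 0 gave 0 higher. With array run as a block, Rpl12 turned to 0.85, Rps2 to -1.77, Rps25 to -0.89 and Rps6 to -0.47, and Rpl41 was 4.92. Those values take their WT side from the 3 WT cells of run 2 alone. The causes were not tested. No paired analysis was possible because every cell has a number of its own and no cell has a partner in another label. Depth cannot be given for arrays, and levels near the top of the scale and near 0 bound what differences could be seen.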
